A study of Rattus norvegicus with 20 samples.

Results

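The NR4A receptors are a family of 3 orphan nuclear receptors, Nr4a1, Nr4a2 and Nr4a3, and they were followed here through every probe set that the array's probe table gives to these genes. That is 6 of 31099 probe sets: 1 for Nr4a1 (1386935_at), 2 for Nr4a2 (1369007_at and 1387410_at) and 3 for Nr4a3 (1369067_at, 1369217_at and 1393389_at), and no measured value was used to choose them. Expression was measured on 20 Affymetrix arrays of pancreatic islets from male Wistar rats aged 8 weeks, 1 array per sample. Islets had an adenovirus for Nr4a1, an adenovirus for Nr4a3 or an adenovirus for green fluorescent protein (GFP), or were left untreated, with 5 arrays per group. All islets were kept in medium with 10% serum and 8 mM glucose, virus was present for 18 h where it was used, and islets were collected at 48 h. The titles and characteristics give these groups, but the labels' treatment protocol speaks of other viruses, with beta-galactosidase and Nkx6-1, and the groups below follow the titles. The titles call the arrays of a group biological replicates. The sources used here do not give the promoter in the viruses, the share of cells infected or the animals that made up a sample. The p-values thus measure the spread between these samples, which may be technical in part. The arrays measured whole islets, in which fewer cells of a type and less RNA per cell cannot be told apart.

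NR4A receptors act as transcription factors without a known activating ligand. They bind DNA as monomers at the NBRE, as dimers at related sites, and Nr4a1 and Nr4a2 also as partners of the retinoid X receptors. Their own genes are immediate early genes: cAMP, calcium and growth signals raise them within a short time, in beta cells after glucose or incretin signals, and the transcripts decay quickly. The series asks, by its title, about cell cycle genes that both receptors share with the proliferation pathway of the beta cell factor Nkx6-1.

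The promoters of the chromosomal genes are shown because cAMP input to this family works through elements in them. RefSeq tables (build GRCr8) held a promoter for 2 of the 3 genes, Nr4a1 on the plus strand at chr7:134259888-134260187 and Nr4a2 on the minus strand at chr3:62104838-62105137. Each window runs from 250 bases before the start of transcription to 50 bases after it. Capitals mark the half-site of the cAMP response element (CRE), TGACG or CGTCA on the other strand.
Nr4a1: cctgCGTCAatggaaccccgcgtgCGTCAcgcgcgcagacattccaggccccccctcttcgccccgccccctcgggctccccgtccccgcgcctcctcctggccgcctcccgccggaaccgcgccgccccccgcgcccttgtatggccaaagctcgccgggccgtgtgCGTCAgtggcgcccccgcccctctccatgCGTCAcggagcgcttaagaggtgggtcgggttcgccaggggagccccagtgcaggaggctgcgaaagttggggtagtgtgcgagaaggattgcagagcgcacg
Nr4a2: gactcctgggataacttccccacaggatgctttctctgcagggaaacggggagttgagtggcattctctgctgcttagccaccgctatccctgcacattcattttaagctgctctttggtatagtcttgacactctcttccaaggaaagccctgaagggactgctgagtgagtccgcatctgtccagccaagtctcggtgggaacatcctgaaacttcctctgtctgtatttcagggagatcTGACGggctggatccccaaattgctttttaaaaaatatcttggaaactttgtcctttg
The Nr4a1 window held 4 half-sites, whose first bases lie at -246, -226, -82 and -53 from the start, and the Nr4a2 window held 1, at -8. Of 33365 different promoters of this length, 21.2% held at least 1 half-site and 0.237% held 4 or more. The Nr4a1 window was rich in G and C (72.3%, against a median of 51.7% over all promoters), and the Nr4a2 window was not (48.7%). Neither window held a full CRE (TGACGTCA, which contains the half-site, in 1.83% of promoters), an NBRE (AAAGGTCA or TGACCTTT, in 1.42%) or a CArG box, the core of the serum response element (1.63%).

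Array medians ran from 98.9 to 103 (linear intensity). Nr4a3 replicate 2 was unlike the rest: it correlated with the other 19 arrays at a mean of 0.939 across probe sets, where these reached 0.981 to 0.989. Its beta-actin control read 4.62 more at the 3' than at the 5' end (log2 intensity), where the 19 arrays read 1.50 to 2.21 more. Results are given with and without it. The islet label was borne out by hormone genes: Ins1 averaged between 14.91 and 14.98 and Gcg between 14.67 and 14.78 (log2 intensity) in the 4 groups.

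The Nr4a1 transcript, the first of the delivered genes, was at a like level in all 4 groups. Its probe set 1386935_at read 6.07, 5.82, 6.06, 5.91 and 6.11 (log2 intensity) in the arrays labelled Nr4a1 and 6.11, 6.38, 6.07, 5.91 and 5.98 in those labelled Nr4a3. It read 6.03, 6.01, 5.98, 6.20 and 6.12 in the GFP arrays and 5.98, 6.16, 6.17, 5.79 and 6.14 in the untreated arrays. All groups overlapped, and the highest of the 20 values belonged to Nr4a3 replicate 2. Nr4a1 in the arrays labelled Nr4a1 stood at 0.949-fold of GFP, with a 95% interval from 0.829-fold to 1.09-fold (log2 -0.075 ± 0.094, SE, limma adjusted p = 0.843, n = 5 each). In the arrays labelled Nr4a3 it stood at 1.02-fold of GFP (interval 0.887 to 1.16, adjusted p = 0.935 with limma), and at a log2 of -0.050 without Nr4a3 replicate 2. No rise of Nr4a1 was called in the arrays that had its virus. The sources used here do not say whether the probes lie within the stretch of transcript that the virus carries, and a probe set outside it checks nothing about delivery or labels.

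**Figure D1:**
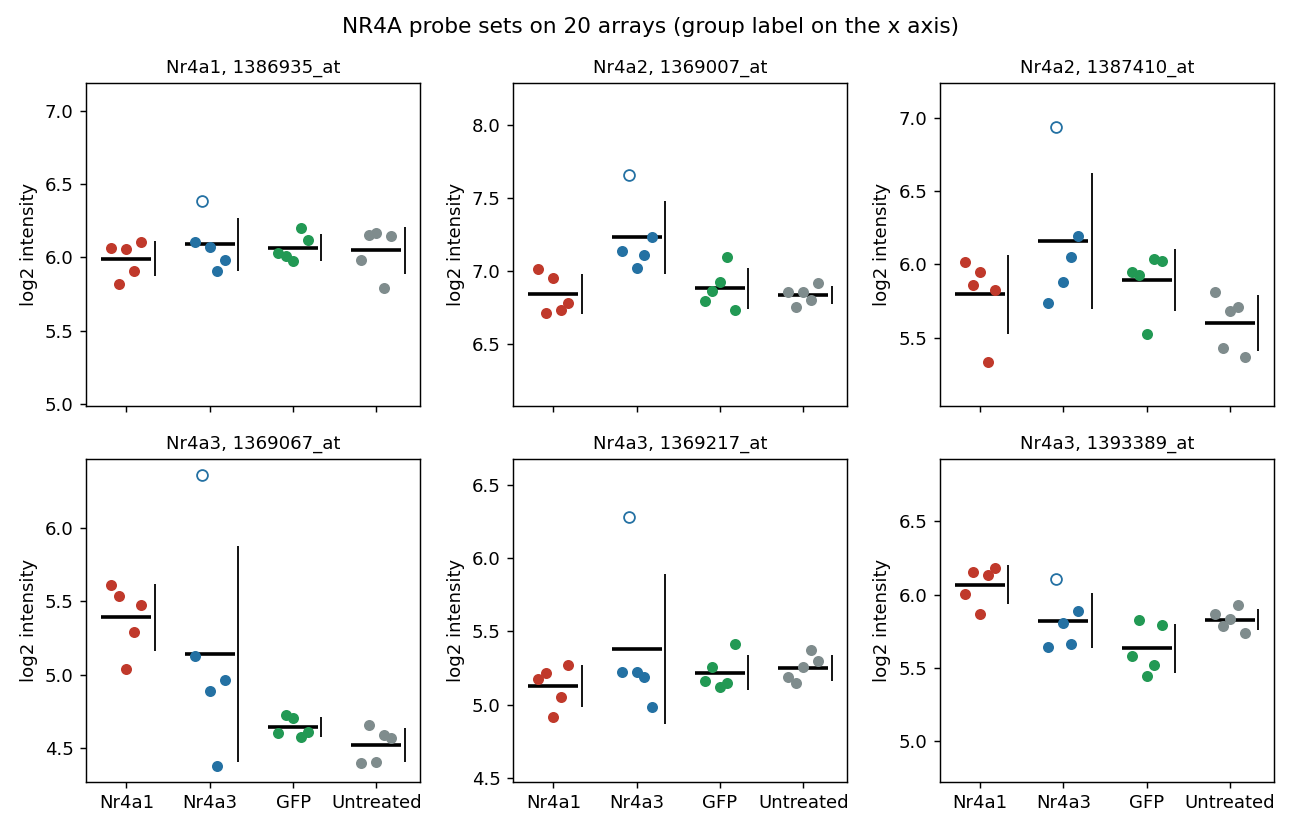
Log2 intensity (y axis, each panel spanning the same range) of the 6 NR4A probe sets in the arrays labelled Nr4a1, Nr4a3, GFP and untreated (x axis). Points are arrays, with Nr4a3 replicate 2 open, horizontal lines are group means and vertical lines 1 SD (n = 5). The Nr4a1 arrays lie above all GFP arrays for Nr4a3 1369067_at and 1393389_at, and Nr4a3 replicate 2 is the highest array in each panel except that of 1393389_at.

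Nr4a3, the other delivered gene, rose in the arrays labelled Nr4a1 by 1 of its 3 probe sets. The brightest, 1393389_at, read 6.01, 6.15, 5.87, 6.13 and 6.18 (log2 intensity) in the Nr4a1 arrays and 5.64, 6.10, 5.80, 5.67 and 5.89 in the Nr4a3 arrays. It read 5.58, 5.83, 5.45, 5.52 and 5.79 in the GFP arrays and 5.86, 5.78, 5.84, 5.93 and 5.74 in the untreated arrays. Every Nr4a1 array lay above every GFP array, while the Nr4a3 arrays overlapped all other groups. Nr4a3 rose 1.35-fold by this probe set in the Nr4a1 arrays against GFP (log2 0.44 ± 0.10, SE, interval 0.24 to 0.64, limma adjusted p = 0.0081). The call held in all 28 alternatives that test this probe set, with limma adjusted p up to 0.0313. The alternative that filters out dim probe sets removed all 3 Nr4a3 probe sets, so it could not test the call. Over all arrays 1393389_at had a geometric mean of 57.2 (linear intensity), below every array median (98.9 to 103), and no detection p-values were used. In the Nr4a3 arrays the same probe set stood at 1.14-fold of GFP (log2 0.19 ± 0.10, limma adjusted p = 0.476).

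The control against which this rise was measured was itself the lowest group. Means of 1393389_at were 6.07 ± 0.13 for Nr4a1, 5.82 ± 0.19 for Nr4a3, 5.63 ± 0.17 for GFP and 5.83 ± 0.07 for untreated (log2 intensity ± SD, n = 5 each). Nr4a3 and untreated, the neighbours in the middle of that order, differed by less than their spread, and GFP differed from untreated by a log2 of -0.20 (limma adjusted p = 1.0, exact permutation p = 0.0635, two-sided). Against untreated islets the Nr4a1 arrays were higher by a log2 of 0.24 ± 0.10 (limma adjusted p = 0.182, exact permutation p = 0.0159), with 4 of 5 arrays above all untreated arrays. These comparisons share arrays with each other.

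The dimmer probe set 1369067_at was low and alike in GFP and untreated islets. It read 5.61, 5.54, 5.04, 5.29 and 5.48 (log2 intensity) in the Nr4a1 arrays and 5.13, 6.36, 4.88, 4.38 and 4.96 in the Nr4a3 arrays. It read 4.60, 4.73, 4.70, 4.57 and 4.61 in the GFP arrays and 4.40, 4.66, 4.40, 4.59 and 4.56 in the untreated arrays. All 5 Nr4a1 arrays lay above all GFP and all untreated arrays, whereas the Nr4a3 arrays were spread from below the lowest control to far above the rest, with 6.36 in replicate 2. Nr4a3 stood at 1.68-fold of GFP in the Nr4a1 arrays by this probe set (log2 0.75 ± 0.23, SE, interval 0.27 to 1.22), which did not pass (limma adjusted p = 0.0636). All groups share 1 estimate of the spread, and the same difference had a limma adjusted p = 0.000305 when Nr4a3 replicate 2 was left out, and 0.0324 when Nr4a3 replicate 4 was. Against untreated islets it rose 1.82-fold (log2 0.87 ± 0.23, limma adjusted p = 0.0301). That call ended (limma adjusted p from 0.0517 to 0.0899) without Nr4a1 replicate 1, 2, 4 or 5 or untreated replicate 1, 3, 4 or 5, and had an adjusted p = 0.0557 on the log2(value + 16) scale.

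The arrays labelled Nr4a3 stood at 1.41-fold of GFP for 1369067_at (log2 0.50 ± 0.23, SE, limma adjusted p = 0.422), and at a log2 of 0.19 with an interval from -0.07 to 0.46 without replicate 2 (adjusted p = 0.569 with limma). Between the delivered genes, the Nr4a1 arrays exceeded the Nr4a3 arrays by 0.25 ± 0.23 with all arrays (limma adjusted p = 0.682). Without Nr4a3 replicate 2 the difference was 0.55, with 4 of 5 Nr4a1 arrays above all remaining Nr4a3 arrays (limma adjusted p = 0.0548).

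The last Nr4a3 probe set, 1369217_at, showed no such pattern. It ranged from 4.92 to 5.27 (median 5.18, log2 intensity) in the Nr4a1 arrays, from 4.98 to 6.28 (median 5.22) in the Nr4a3 arrays, from 5.12 to 5.41 (median 5.16) in the GFP arrays and from 5.15 to 5.37 (median 5.26) in the untreated arrays. Apart from the 6.28 of Nr4a3 replicate 2, all values lay between 4.92 and 5.41. The Nr4a1 arrays stood at 0.938-fold of GFP (interval 0.739 to 1.19, limma adjusted p = 0.911), and the Nr4a3 arrays at 1.12-fold (interval 0.881 to 1.42, adjusted p = 0.717 with limma), with a log2 of -0.065 without replicate 2. The 3 probe sets of Nr4a3 thus gave different calls for Nr4a1 against GFP. None was called lower, and the interval of 1369217_at spanned both directions.

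Nr4a2 encodes Nurr1, best known from dopamine neurons, and neither virus was said to carry it. Its brighter probe set 1369007_at read 7.14, 7.66, 7.02, 7.11 and 7.23 (log2 intensity) in the Nr4a3 arrays and 7.02, 6.71, 6.95, 6.74 and 6.78 in the Nr4a1 arrays. It read 6.79, 6.86, 6.93, 7.10 and 6.74 in the GFP arrays and 6.86, 6.75, 6.86, 6.80 and 6.92 in the untreated arrays. The Nr4a3 arrays lay above all Nr4a1 arrays, the nearest of which differed only past the printed digits, and above all untreated arrays, and 4 of 5 lay above all GFP arrays. Nr4a2 stood at 1.27-fold of GFP in the Nr4a3 arrays (log2 0.35 ± 0.10, SE, interval 0.13 to 0.56), which did not pass over all probe sets (limma adjusted p = 0.141, exact permutation p = 0.0159, two-sided and unadjusted). Without replicate 2 the log2 difference was 0.24 (interval 0.08 to 0.41, limma adjusted p = 0.144).

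The difference of Nr4a2 between the receptors was of the same size. By 1369007_at the Nr4a1 arrays stood at 0.764-fold of the Nr4a3 arrays (log2 -0.39 ± 0.10, SE, limma adjusted p = 0.148). The two-sided exact permutation p = 0.00794 is as small as 5 against 5 arrays allow, and is unadjusted. Without Nr4a3 replicate 2 the difference was -0.28 and the ranges still did not overlap (limma adjusted p = 0.149). Against untreated islets the Nr4a3 arrays were higher by 0.39 ± 0.10 (adjusted p = 0.0901 with limma). The Nr4a1 arrays stood at 0.971-fold of GFP (interval 0.837 to 1.13, limma adjusted p = 0.948).

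The dimmer Nr4a2 probe set 1387410_at was more spread. It ranged from 5.74 to 6.94 (median 6.05, log2 intensity) in the Nr4a3 arrays and from 5.33 to 6.02 (median 5.86) in the Nr4a1 arrays, against 5.52 to 6.03 (median 5.95) in the GFP arrays and 5.37 to 5.81 (median 5.68) in the untreated arrays. All groups overlapped. The Nr4a3 arrays exceeded GFP by 0.27 ± 0.18 (limma adjusted p = 0.595) and by 0.07 without replicate 2. Here GFP exceeded untreated islets by 0.29 ± 0.18, with 4 of 5 arrays above all untreated arrays (limma adjusted p = 1.0, exact permutation p = 0.0635).

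**Figure D2:**
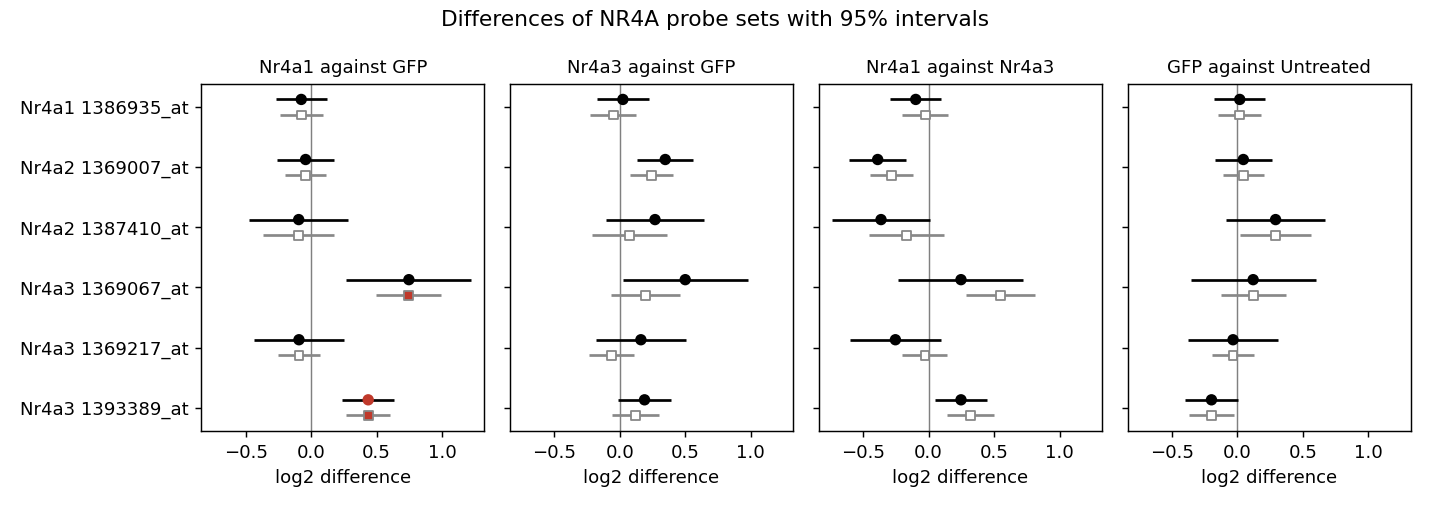
Log2 difference (x axis) of each NR4A probe set (y axis) in 4 comparisons, with 95% intervals. Circles use all 20 arrays, squares leave out Nr4a3 replicate 2, and red marks a limma adjusted p under 0.05, reached by 1393389_at (0.44) and, without that array, by 1369067_at (0.75), both for Nr4a1 against GFP.

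Over the family, 1 of 6 probe sets was called for Nr4a1 against GFP, where 5.42% of all 31042 probe sets tested were called (3.65% higher). For Nr4a3 against GFP it was 0 of 6 against 1.06% of all. At an unadjusted limma p under 0.05 it was 2 of 6, against 11.2% of all. For Nr4a1 against Nr4a3 it was 0 of 6, against 0.387%, and unadjusted 2 of 6, against 9.64%. For GFP against untreated it was 0 of 6, against 0%, and unadjusted 0 of 6, against 3.75%. Against untreated islets 1 of 6 was called for Nr4a1 (5% of all), and 0 of 6 for Nr4a3, against 0.825%, with 3 of 6 unadjusted, against 11.8%. Without Nr4a3 replicate 2, 2 of 6 were called for Nr4a1 against GFP, and 12.5% of all. Group ranges did not overlap in 2 of 6 probe sets for Nr4a1 against GFP, both higher, against 7.26% of all probe sets. Of the 6, 1 was lower without overlap in Nr4a1 against Nr4a3, against 0.834% of all. Against untreated islets 1 was higher without overlap for Nr4a1 (5.32% of all) and 1 for Nr4a3 (1.36%).

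The probe sets of one gene followed each other only in part. For Nr4a3, 1369067_at and 1393389_at had a Pearson r of 0.67 (permutation p = 0.00097, adjusted over 15 pairs 0.00937) and a Spearman rho of 0.59 (permutation p = 0.00692, adjusted 0.104) over 20 arrays. Their r was 0.64 without the 2 arrays farthest from the median of 1369067_at and 0.66 without Nr4a3 replicate 2. Once group means were removed it was 0.58 over all 20 arrays, Nr4a3 replicate 2 included, with no p-value computed. The permutations in this paragraph crossed the 4 groups, so their p-values also take in differences between groups. The Nr4a2 pair had an r of 0.75 (permutation p = 0.00125, adjusted 0.00937) and a rho of 0.51 (permutation p = 0.0240, adjusted 0.180), but r was 0.34 without the 2 farthest arrays and 0.46 without Nr4a3 replicate 2, so it rested in part on those arrays. For 1369067_at and 1369217_at, r was 0.52 over 20 arrays (permutation p = 0.0415, adjusted 0.0801) and -0.23 without Nr4a3 replicate 2, and rho was -0.06 (permutation p = 0.816, adjusted 0.957). For 1369217_at and 1393389_at, r was 0.28 (permutation p = 0.254, adjusted 0.317) and 0.02 without that array. The spread within groups was smallest for Nr4a1, with an SD of 0.14 on the log2 scale, and largest for 1369067_at, with 0.39, which was 0.20 without Nr4a3 replicate 2. The median over all probe sets was 0.18, and 0.14 without that array.

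Markers of other cell types also differed between the groups. Acinar markers, genes of digestive enzymes, rose in 19 of 22 measured members for Nr4a1 against GFP, where 3.65% of all probe sets were called higher. Examples were Pnlip (log2 3.07 ± 0.44) and Cela1 (3.02 ± 0.50). For Nr4a3 against GFP 0 of 22 passed with limma, against 1.06% of all probe sets, and 5 had an unadjusted p under 0.05, against 11.2%. Their summed linear intensity ran from 37924 to 91745 in the Nr4a1 arrays and from 18339 to 33556 in the Nr4a3 arrays, against 4167 to 26681 in the GFP arrays and 4593 to 58405 in the untreated arrays. No marker of any list was at 0. Untreated replicate 5 carried acinar markers at a mean log2 intensity of 10.43, inside the range of the Nr4a1 arrays (9.83 to 11.25). Nr4a3 read 5.74 by 1393389_at and 4.56 by 1369067_at in that array, below every Nr4a1 array. This is 1 array, and the part of acinar content in the Nr4a3 values was not tested.

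Of all 31042 probe sets, 1134 were called higher and 549 lower for Nr4a1 against GFP. For Nr4a3 against GFP, 292 were called higher and 37 lower. Endothelial markers fell in 8 of 13 members for Nr4a1 against GFP, among them Flt1 (log2 -0.78 ± 0.15) and Emcn (-0.82 ± 0.18). For Nr4a3 against GFP 9 of the 13 had an unadjusted limma p under 0.05, against 11.2% of all probe sets. By the adjusted test these markers fell in 1 of 13 members there, Flt1 (-0.72 ± 0.15). Their summed intensity was 1841 to 2690 in the Nr4a1 arrays and from 2275 to 2857 in the Nr4a3 arrays, against 2932 to 4640 in the GFP arrays and 3396 to 5489 in the untreated arrays. Beta cell markers fell in 3 of 11 members for Nr4a1 against GFP, among them Pdx1 (-0.69 ± 0.13) and the potassium channel gene Kcnj11 (-0.57 ± 0.10). For Nr4a3 against GFP 0 of 11 were called, with 4 at an unadjusted p under 0.05, against 11.2% of all probe sets. Of 10 duct markers 2 rose for Nr4a1, Car2 (2.21 ± 0.19), which encodes a carbonic anhydrase, and Tff2 (1.58 ± 0.34), and 1, Car2 (1.59 ± 0.19), for Nr4a3. None of 8 markers of other hormone cells, 13 of stellate cells and fibroblasts or 14 of macrophages and leukocytes was called in either comparison by limma, with at most 1 of a list at an unadjusted p under 0.05. With Nr4a3 replicate 2 left out, 7 beta cell, 9 endothelial, 1 other hormone, 1 stellate and 1 duct marker fell for Nr4a1 against GFP. In the same fit 20 acinar and 2 duct markers rose, and 12.5% of all probe sets were called. The difference between the 3' and the 5' control probe sets of GAPDH was 0.271 to 0.357 in the Nr4a1 arrays and from 0.409 to 2.06 in the Nr4a3 arrays, against 0.499 to 0.739 in the GFP arrays and 0.408 to 0.720 in the untreated arrays. The part of these markers and of RNA quality in the Nr4a3 values was not tested either.

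**Figure D3:**
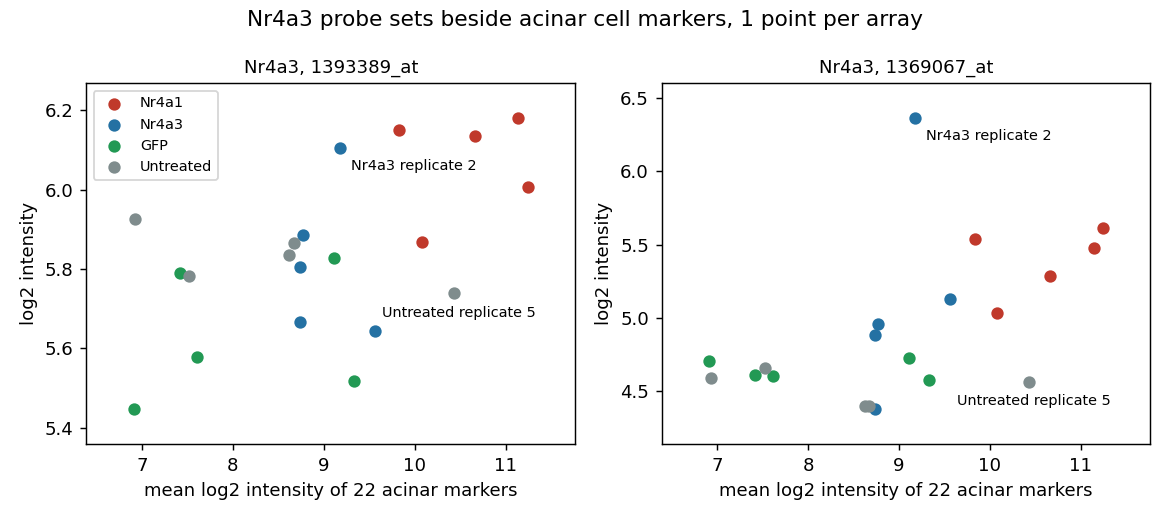
Log2 intensity of Nr4a3 probe sets 1393389_at and 1369067_at (y axes) beside the mean log2 intensity of 22 acinar markers (x axis), 1 point per array, coloured by group. Untreated replicate 5 has an acinar mean of 10.43 and Nr4a3 values of 5.74 and 4.56, below all 5 Nr4a1 arrays; the part of acinar content was not tested.

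The retinoid X receptors, dimer partners of Nr4a1 and Nr4a2, were measured for all 3 genes and none was called or had an unadjusted limma p under 0.05 against GFP. For Nr4a1 against GFP the log2 differences were -0.10 ± 0.13 for Rxra, 0.14 ± 0.11 for Rxrb and -0.06 ± 0.13 for Rxrg (SE, limma adjusted p from 0.654 to 0.940). For Nr4a3 against GFP they were -0.09 for Rxra, 0.09 for Rxrb and 0.15 for Rxrg, and without Nr4a3 replicate 2 they were -0.22, 0.23 and 0.01. Rxrb then came closest to the threshold, with a limma adjusted p = 0.0723.

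Of 28 measured genes that carry cAMP and calcium signals to the NR4A promoters, 2 fell and none rose for Nr4a1 against GFP. Of all 31042 probe sets, 5.42% were called in either direction, and 549 probe sets were called lower. At an unadjusted limma p under 0.05 it was 9 of 28, against 15.9% of all. The list's median log2 difference was -0.19, beside -0.01 over all probe sets. The 2 called genes were Nfatc2 and Camk2d. Nfatc2, a transcription factor switched on by calcineurin, averaged 6.92 ± 0.25 in the Nr4a1 arrays and 7.41 ± 0.17 in the GFP arrays (SD, log2 intensity, n = 5 each, limma adjusted p = 0.0217). Camk2d, a calcium and calmodulin kinase subunit, averaged 9.33 ± 0.22 in the Nr4a1 arrays and 9.79 ± 0.18 in the GFP arrays (limma adjusted p = 0.0246). The count without Nr4a3 replicate 2 was 10 lower and 1 higher of 28, with the background at 12.5%. For Nr4a3 against GFP 0 of 28 were called by limma (9 unadjusted, against 11.2% of all), with a median of -0.08.

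Other immediate early genes, which share these inputs with the NR4A genes, were not called higher in any of 35 measured members against GFP. For Nr4a1 against GFP 3 fell, where 5.42% of all 31042 probe sets were called in either direction and 549 probe sets lower. The list median was -0.11. The 3 were Jund of the AP-1 complex by 0.28, Zfp36, whose product promotes decay of AU-rich transcripts, by 0.57, and the neuronal gene Arc by 0.26 (log2, limma adjusted p = 0.0285, 0.0450 and 0.0474). For Nr4a3 against GFP 0 of 35 were called by limma, against 1.06% of all, with a median of -0.09. At an unadjusted limma p under 0.05 it was 6 of 35, against 11.2% of all. For GFP against untreated it was 0 of 35, and unadjusted 1 of 35, against 3.75% of all. Arc averaged 6.69 ± 0.13 in the Nr4a1 arrays and 6.96 ± 0.15 in the Nr4a3 arrays, against 6.95 ± 0.06 in the GFP arrays (SD, log2 intensity, n = 5 each). Counts for Nr4a1 and for Nr4a3 against GFP were the same without Nr4a3 replicate 2, where 12.5% and 1.84% of all probe sets were called.

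Among 23 measured genes of glucose and energy metabolism that NR4A receptors are known to affect in rodent muscle and liver, 1 was called in both comparisons. It was Gyg1, glycogenin, the protein primer of glycogen synthesis. Of all probe sets, 5.42% were called for Nr4a1 against GFP and 1.06% for Nr4a3 against GFP. Gyg1 ranged from 12.31 to 13.03 (log2 intensity) in the Nr4a1 arrays and from 10.45 to 11.45 in the Nr4a3 arrays, against 9.56 to 10.02 in the GFP arrays and 9.61 to 9.99 in the untreated arrays. The 3 levels did not overlap. Gyg1 rose by a log2 of 2.98 ± 0.17 in the Nr4a1 arrays (limma adjusted p = 2.6e-09) and by 1.15 ± 0.17 in the Nr4a3 arrays (adjusted p = 0.00151), and it was higher in Nr4a1 than in Nr4a3 arrays by 1.83 ± 0.17 (adjusted p = 2.31e-05). The list's median was 0.05 in both comparisons with GFP. With Nr4a3 replicate 2 left out, 6 of 23 rose and 4 fell for Nr4a1, where 12.5% of all probe sets were called, and Gyg1 alone rose for Nr4a3, where 1.84% were called. Gyg1 was placed on the list with earlier results of these data known and is not independent evidence.

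Genes described as NR4A targets in steroid-producing, pituitary and nerve cells moved both ways in the arrays labelled Nr4a1, 2 of 26 higher and 2 lower against GFP (list median 0.01), where 5.42% of all probe sets were called. With Nr4a3 replicate 2 left out, 2 were higher and 4 lower, against 12.5% of all. Aldh1a1, which makes retinoic acid, averaged 7.38 ± 0.31 in the Nr4a1 arrays and 6.41 ± 0.34 in the Nr4a3 arrays, against 5.59 ± 0.32 in the GFP arrays (SD, log2 intensity, n = 5 each). It rose by 1.78 ± 0.21 in the Nr4a1 arrays (SE, limma adjusted p = 1.89e-05), differed from GFP by 0.82 ± 0.21 in the Nr4a3 arrays (adjusted p = 0.0665) and was higher in Nr4a1 than in Nr4a3 arrays by 0.96 ± 0.21 (adjusted p = 0.0470). Slc18a2, the vesicular monoamine transporter, rose by 0.90 ± 0.17 in the Nr4a1 arrays, with 0.62 ± 0.17 in the Nr4a3 arrays (limma adjusted p = 0.0021 and 0.0845). The VEGF co-receptor gene Nrp1 fell by 0.99 and the GDNF receptor gene Ret by 0.59 in the Nr4a1 arrays. In the Nr4a3 arrays 1 of 26 rose, the neurotrophin gene Bdnf, by 0.62 ± 0.13 (limma adjusted p = 0.0243), with 0.31 ± 0.13 in the Nr4a1 arrays (adjusted p = 0.233). The list's median was 0.09 there.

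**Figure D4:**
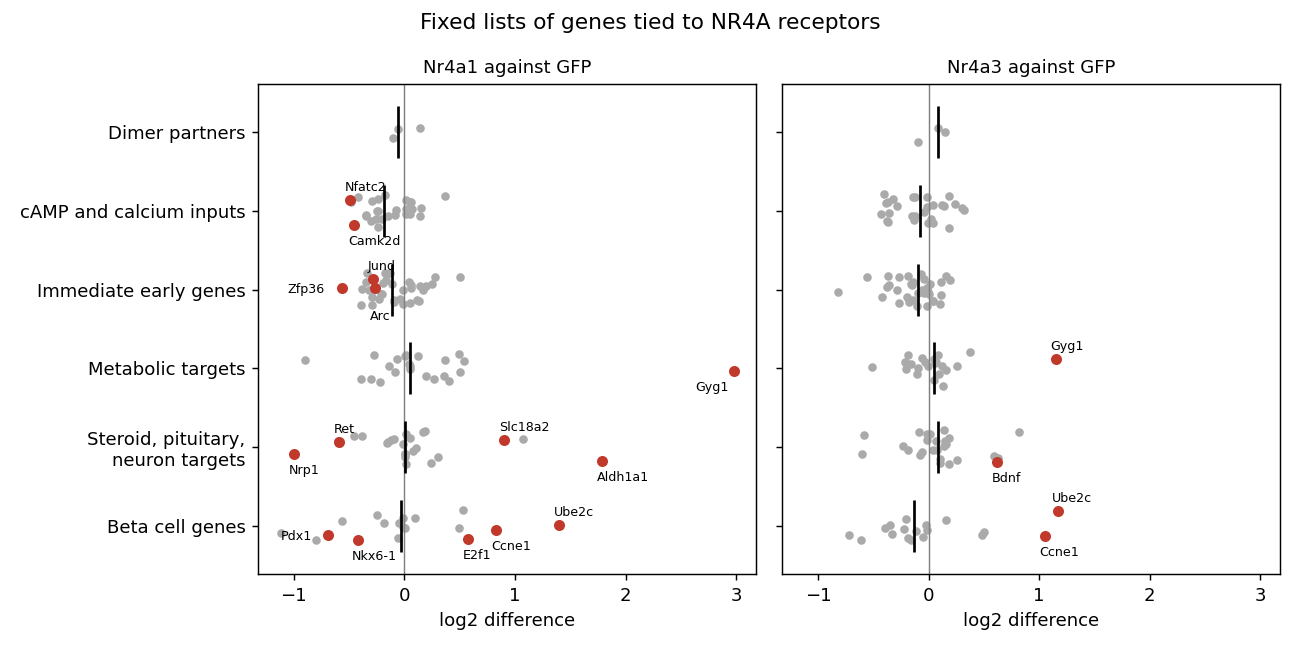
Log2 difference (x axis) of the genes of 6 fixed lists (y axis) for Nr4a1 against GFP and Nr4a3 against GFP. Each point is a gene, red and named where the limma adjusted p was under 0.05, and black lines are list medians; Gyg1 stands farthest out, at 2.98 and 1.15.

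Of 18 measured beta cell genes tied to NR4A receptors or Nkx6-1, 3 rose and 2 fell for Nr4a1 against GFP, and 2 rose for Nr4a3 against GFP, where 5.42% and 1.06% of all probe sets were called. With Nr4a3 replicate 2 left out, 4 rose and 5 fell for Nr4a1 and 3 rose for Nr4a3, against 12.5% and 1.84% of all. These genes were chosen from knowledge of the study and are not independent evidence. The cyclin gene Ccne1 differed from GFP by 0.83 ± 0.14 in the Nr4a1 arrays and by 1.05 ± 0.14 in the Nr4a3 arrays (log2 ± SE), and Ube2c, a ubiquitin-conjugating enzyme of mitosis, by 1.40 ± 0.24 and 1.17 ± 0.24. All 4 differences passed, while those between the receptors did not (-0.22 ± 0.14 for Ccne1 and 0.23 ± 0.24 for Ube2c, limma adjusted p = 0.585 and 0.713). Nkx6-1 itself fell by 0.42 in the Nr4a1 arrays, and Pdx1, a transcription factor gene of beta cells, fell by 0.69. In the Nr4a3 arrays they differed by -0.16 and -0.39 and were not called. The list's median was -0.03 for Nr4a1 and -0.13 for Nr4a3.

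The genes whose pattern was most like each NR4A probe set were ranked by Pearson r over all 20 arrays or over the 19 without Nr4a3 replicate 2, whichever was lower, among the brightest probe sets of 14217 genes. Of these genes, the NR4A genes, unnamed loci and olfactory or vomeronasal receptors were left out of the ranking. The closest patterns were those to Nr4a3 1369067_at: Cdadc1, a cytidine deaminase domain gene (r = 0.93), Golga7, which helps palmitoylate Ras proteins (0.92), Nubpl, an assembly factor of respiratory complex I (0.91), Zfand4 (0.90) and the mitotic kinase gene Nek6 (0.88). With group means removed their r lay between 0.76 and 0.93 over 20 arrays, Nr4a3 replicate 2 included, and this was not computed without that array. All 5 were also higher in the Nr4a1 than in the GFP arrays, from 0.45 for Golga7 to 1.14 for Nek6 on the log2 scale, and passed the test. The 20 arrays share their groups and their acinar content, and these are the highest of the many values ranked.

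The other probe sets had looser companions. For Nr4a3 1393389_at they were Ankrd42 (r = 0.80), Utp15 (0.79), Fam136a (0.76), Zswim6 (0.76) and Slc25a29 (0.76), of which Ankrd42, Zswim6 and Slc25a29 rose in the Nr4a1 arrays, by 0.43, 0.85 and 0.32. For Nr4a3 1369217_at they were Hgh1 (0.72), Tnfaip8l1 (0.67), Rps13 (0.61), Inka2 (0.61) and Cyp2j10 (0.61). For Nr4a1 they were Sp100 (0.77), Rbm38 (0.72), Zfp790 (0.68), Rgma (0.67) and Cacng1 (0.66), none of them called for Nr4a1 or Nr4a3 against GFP. For Nr4a2 1369007_at they were A2m (0.76), Hrh1 (0.74), Dhcr7 (0.73), Rab9b (0.70) and Arhgef10 (0.69), of which A2m, a protease inhibitor of plasma, rose in the Nr4a3 arrays by 0.91 and differed by 0.14 in the Nr4a1 arrays. For Nr4a2 1387410_at they were Ppp2r5c (0.75), Pdzrn4 (0.75), Plcxd3 (0.73), Clpb (0.68) and Glra1 (0.67). No gene was shared between the 6 sets of 5.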

How the data were processed

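The authors deposited probe set intensity values of 20 arrays, made with RMA, per the submitters' processing notes, a method that corrects background, equalises distributions between arrays and sums up probes. The deposited intensity values are on a linear scale, from 7.69 to 34261, and were log2-transformed here. The 57 control probe sets judged arrays only. Detection p-values, scan batches and probe positions were not used here, and the number of arrays limits the precision. With limma, group means were fitted over all 20 arrays to 31042 probe sets (limma 3.58.1, R 4.3.3, 16 residual and 3.65 prior degrees of freedom), two-sided, with Benjamini-Hochberg adjustment over all probe sets and calls at an adjusted p under 0.05. The script was tested on simulated data. A gene on a list was represented by its brightest probe set, the highest mean over all arrays.

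The 14 lists (227 of 252 entries measured) were chosen with earlier results of these data known, although the rule for the members used no measured value. Genes named are the members, the Rxr genes, the 5 most alike per probe set, and up to 4 called genes per list and comparison (2 per marker list) by smallest adjusted p. Alternatives were fits to 10 arrays, a replicate block, another variance prior, array weights, 2 normalizations, log2(value + 16), a filter at the 40th percentile of means, 1 probe set per gene, exact permutation and each array left out. Equal replicate numbers were not treated as pairs in the main fit. Deviations from group means correlated at -0.22 to 0.54 over 30 equally numbered pairs, with 7 above 0.1. Over 120 differently numbered pairs they correlated at -0.49 to 0.48, with 36 above 0.1. These correlations cannot show whether equally numbered arrays share animals. No arrays were identical.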

Additional observations from a re-analysis of the deposited data

Results flagged for a closer look

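In 3 of 24 sets of 5 arrays (6 probe sets in 4 groups), 1 array lay far from the others relative to the whole range, and chance flags about 1 in 20 such sets. Nr4a3 1369217_at read 6.28 in Nr4a3 replicate 2, with the other 4 arrays between 4.98 and 5.22. Nr4a2 1387410_at read 5.33 in Nr4a1 replicate 4, with the others between 5.82 and 6.02. The same probe set read 5.52 in GFP replicate 3, with the others between 5.93 and 6.03. Only the first belongs to the array that stood apart over the whole table.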

How the results depend on the processing

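For the 12 differences from untreated of both receptors, 204 of 232 recomputed values kept direction and side. Of the rest, 9 lost the call (all for 1369067_at, Nr4a1), 4 passed (all by unadjusted exact permutation) and 15 changed sign. For the 24 differences of the 4 designed comparisons, 670 of 692 recomputed values kept their direction and their side of the threshold, 11 passed it and 11 changed sign. The rise of Nr4a3 1393389_at for Nr4a1 against GFP kept its call in every alternative that tested it. For 1369067_at in that comparison (0.75), the call was reached in the fit to only 10 arrays (limma adjusted p = 0.000637), with a replicate block (0.75, adjusted p = 0.0473), with array weights (0.76), by unadjusted exact permutation (0.75, p = 0.00794) and, with values from 0.69 to 0.84 over single arrays left out, without Nr4a3 replicate 2 or 4. The replicate block changed no other call of an NR4A probe set. Array weights also gave calls to Nr4a2 1369007_at for Nr4a3 against GFP (0.26, adjusted p = 0.0407) and to 1369067_at for Nr4a1 against Nr4a3 (0.59, adjusted p = 0.0232). Unadjusted exact permutation passed for 1369007_at in Nr4a3 against GFP (0.35) and Nr4a1 against Nr4a3 (-0.39) and for 1393389_at in Nr4a1 against Nr4a3 (0.25, p = 0.0476). All sign changes were of uncalled differences, of at most 0.161 in size with all arrays, and the cause was not tested. With array weights they were Nr4a2 1387410_at for Nr4a1 against GFP (0.00095), Nr4a1 for Nr4a3 against GFP (-0.024) and untreated (-0.020), and 1369217_at for the same comparisons (-0.046 and -0.085). With a repeated quantile normalization 1369217_at changed sign for GFP against untreated (0.00019) and 1393389_at for Nr4a3 against untreated (0.0078), the last also with median centring (0.0022). With single arrays left out, values ran from -0.086 to 0.012 (1369007_at) and from -0.19 to 0.021 (1387410_at) for Nr4a1 against GFP, and from -0.050 to 0.069 (Nr4a1) and from -0.065 to 0.26 (1369217_at) for Nr4a3 against GFP. They ran from -0.046 to 0.048 (Nr4a1) and from -0.0079 to 0.083 (1369007_at) for GFP against untreated and from -0.040 to 0.036 (1369007_at) for Nr4a1 against untreated. For Nr4a3 against untreated they ran from -0.031 to 0.087 (Nr4a1), from -0.098 to 0.23 (1369217_at) and from -0.080 to 0.035 (1393389_at). The number of all probe sets called, 1683 for Nr4a1 against GFP, was 4086 in the fit to 10 arrays and 5297 with array weights, and ran from 983 (without Nr4a1 replicate 1) to 3877 (without Nr4a3 replicate 2). For Nr4a3 against GFP, 329 became 200 and 1357 in the same fits and ran from 136 (without GFP replicate 5) to 572 (without Nr4a3 replicate 2), with 144 to 170 without GFP replicate 1, 2 or 3 or Nr4a3 replicate 1 or 3. For Nr4a1 against Nr4a3, 120 became 4 and 308 and ran from 57 (without Nr4a1 replicate 1) to 167, with 68 without Nr4a1 replicate 4 and 71 without Nr4a3 replicate 4. For GFP against untreated it was 0 in all 29 alternatives that give a count. The filter on dim probe sets left 1387410_at and all 3 Nr4a3 probe sets untested, and 1 probe set per gene left out 1387410_at, 1369067_at and 1369217_at.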
